A study of Mus musculus with 25 samples.

Results

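Extracellular matrix and integrin genes were examined in cells sorted as neurons from the mouse sensorimotor cortex after spinal cord injury (SCI). The members were chosen by gene symbol alone and comprise collagens, laminins, integrins, fibronectin, lecticans and link proteins, syndecans, glypicans, ADAMTS and ADAMTS-like genes, matrix metalloproteinases (MMPs), their tissue inhibitors (TIMPs) and the SPARC family. The choice returned 61 of the 9931 genes measured with a symbol. *Col4a3bp* and *Itgb1bp1* are not matrix or integrin genes and entered only because their symbols begin with the same letters, which leaves 59 members without these 2.

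The extracellular matrix is the protein and sugar scaffold outside cells, built in brain from a basement membrane of collagen IV and laminin around vessels and from hyaluronan-bound proteoglycans among neurons. Integrins are receptors made of an alpha and a beta chain that span the membrane and link this scaffold to the cytoskeleton. In the injured central nervous system, chondroitin sulfate proteoglycans are known as barriers to axon growth, laminin and fibronectin are known as growth-permissive substrates, and proteases of the ADAMTS and MMP families cut matrix proteins.

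The study asked what the transcription repressor REST does in cortical neurons after SCI. Gene expression was measured in 25 libraries, each from about 1000 cells sorted by fluorescence and sequenced from the 3′ end of mRNA. All mice were C57BL/6, carried floxed *Rest* alleles and a TdTomato reporter behind a floxed stop, were used at 4 to 6 weeks of age and received a virus in the cortex. WT mice received AAV-Syn-GFP and REST cKO mice AAV-Syn-Cre, so the synapsin promoter directs Cre to neurons, and the sorted cells carried GFP in WT and TdTomato in REST cKO. Injury was a complete crush at thoracic level 10. The WT mice, all with the GFP virus, were sham operated (n = 4) or taken 1 day (n = 3), 3 days (n = 3) or 7 days (n = 3) after SCI. The REST cKO mice, all with the Cre virus, were sham operated (n = 3) or taken 1 day (n = 2), 3 days (n = 4) or 7 days (n = 3) after SCI. At day 7 all 3 WT libraries were from females and all 3 REST cKO libraries from males, so genotype and sex cannot be told apart there. All 3 REST cKO sham libraries were from males as well, and WT sham held 2 of each sex. The labels give 3 batches, and WT sham, day 1 and day 7 held no library of batch 3. At day 1, WT held 2 libraries of batch 1 and 1 of batch 2, and REST cKO 1 each of batches 2 and 3. Only 1 library of each genotype thus shared a batch at day 1, so genotype and batch can hardly be told apart there.

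Values are log2 normalized counts with sequencing components regressed out, and levels are compared between libraries. Between genes they are used only for marker genes and marker lists and to choose which members to describe. Tags come from the 3′ end of each mRNA, and how well each gene is captured was not measured. A value under −2 is called low here. WT SCI day 3 replicate 5 stood apart, with 29.5% of its values low against 2.77% to 17% in the other 24 libraries, and 18 of its 61 member values were low. Counts of members and the log2 differences named below that use WT SCI day 3 in a pairwise comparison or at that day's interaction are therefore given with and without this library.

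The targeted gene *Rest* had levels of −0.55, −0.26, −0.39 and −1.55 in WT sham, −1.35, 0.71 and 0.27 in WT at day 1, 1.64, 2.88 and 0.56 at day 3, and 0.26, 2.30 and 2.74 at day 7. In REST cKO the levels were −2.65, −0.79 and −0.52 in sham, −0.43 and −0.40 at day 1, −0.04, −0.31, −0.24 and −1.61 at day 3, and −1.21, −0.33 and −0.97 at day 7. WT libraries at days 3 and 7 were all above the REST cKO libraries of the same day, whereas sham and day 1 overlapped. *Rest* was 1 of 140 genes whose deposited values still correlated with the sequencing components (r = 0.326 and −0.162 over the 25 libraries, which share these components), and all 25 of its values carried fewer than 10 decimals. Where the 3′ tags lie relative to the deleted part was not analysed here. The *Rest* levels were therefore not used as a check of the labels.

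The labels call the cells cortical motor neurons. All 9 neuron markers were measured, *Syt1* (a synaptic vesicle calcium sensor) having the highest mean level, at 1.12 to 3.56, and so were all 6 markers of excitatory cortical neurons, led in the same sense by *Slc17a7* at 0.51 to 2.88. Of 5 markers of layer 5 projection neurons, *Bcl11b* and *Pcp4* were measured, and *Fezf2*, *Crym* and *Ldb2* were not analysed here. Inhibitory neuron markers were measured for 4 of 6 genes, led by *Gad2* at −2.20 to 2.62.

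Markers of other cell types were present in each of the 25 libraries. All 12 microglia markers were measured, 0 of them fell under −2 in any library, and *Ctss* led them at 3.85 to 4.73. Endothelial markers (10 of 10) were led by *Flt1* at 2.50 to 3.87 and mural cell markers (8 of 8) by *Rgs5* at 0.77 to 3.67. Astrocyte markers were measured for 7 of 10 genes, and *Aldh1l1*, *Gfap* and *Aqp4* were not analysed here. Oligodendrocyte markers (8 of 8) were led by *Mbp* at 0.59 to 3.34, their precursors (3 of 5) by *Cspg4* at −0.07 to 3.40, and the fibroblast and meningeal list (3 of 6) by *Ptgds* at 0.05 to 3.78. *Cspg4* is also in the list of other matrix and hyaluronan genes given below, so the precursor sum is not independent of that list. The precursor markers *Pdgfra* and *Gpr17* were not analysed here. Neuron markers were thus present, and so was RNA that marks microglia, vessels and astrocytes. The microglia sum (12 genes, 6.41 to 7.16) was above the neuron sum (9 genes, 3.66 to 5.71) in 25 of 25 libraries, and so was the median level of the list, at 2.78 to 3.55 against 0.54 to 2.56. The markers thus do not show libraries made of neuronal RNA alone, and the name given by the labels is used here for the sort and not for the makeup of the RNA. Over 11 lists and the 10 pairwise comparisons, the summed levels did not overlap in 20 of 110 pairs of list and comparison. Of all single genes, 6.54% to 20.4% were without overlap, depending on the comparison, and the sums were not tested against these shares. The part of these cells in the member levels was not tested. Sums follow the most abundant genes of a list and are on the deposited scale. They were not recomputed after centring the libraries, so whether a lack of overlap would remain on that scale was not tested. In such sorted pools, fewer cells of a type and less RNA per cell cannot be told apart.

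**Figure D1:**
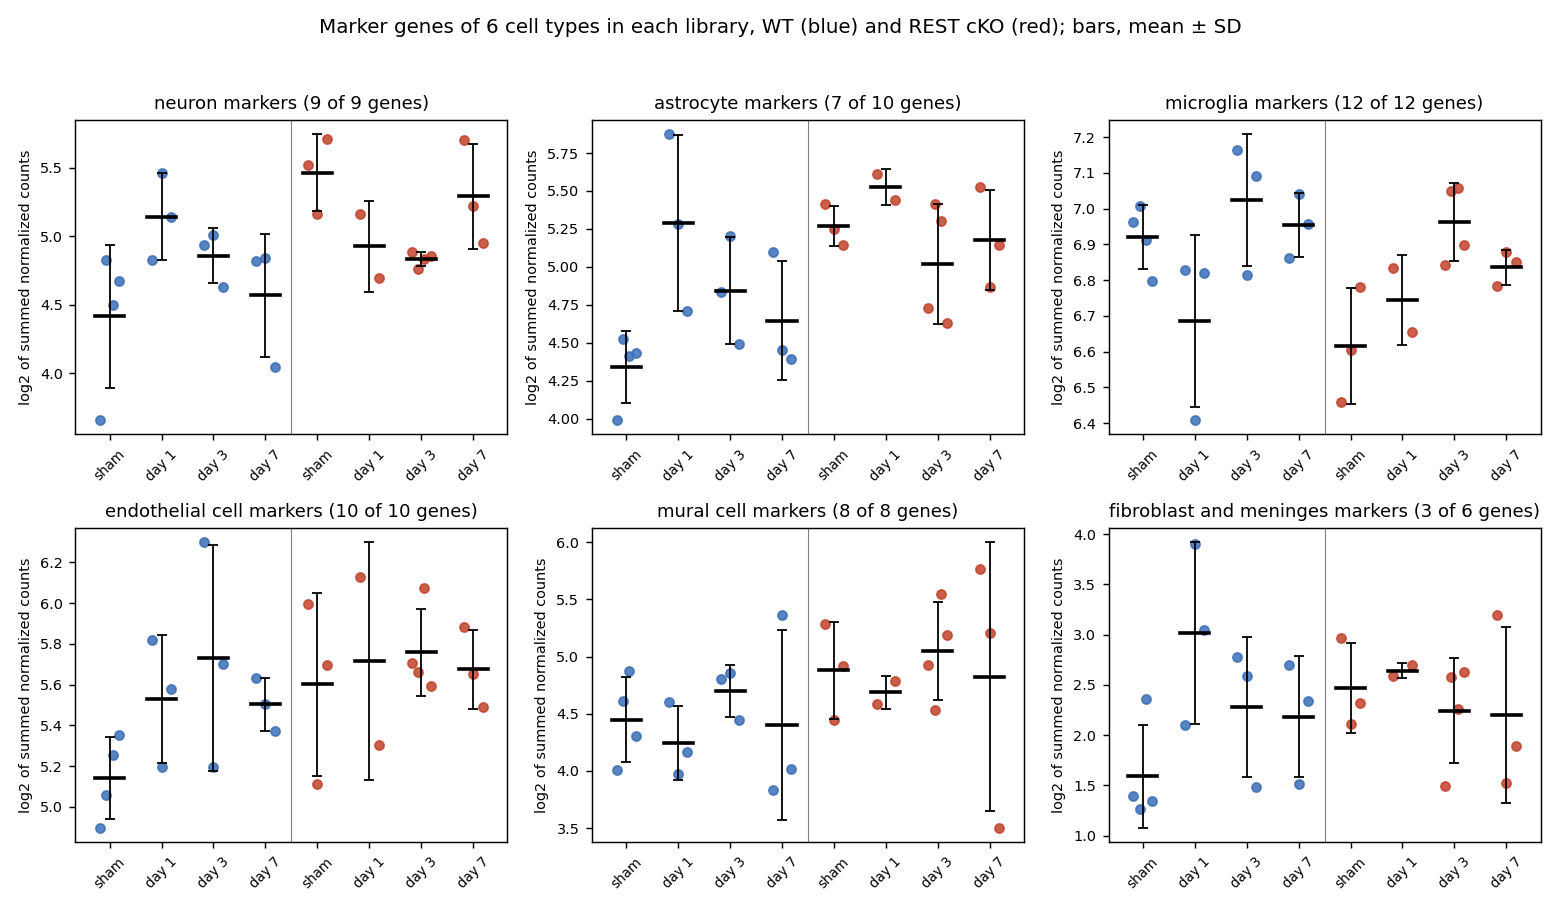
Summed marker level (log2 of the summed normalized counts of the list, y axis) for 6 cell types in each library, by group (x axis), with WT in blue, REST cKO in red and bars for the mean ± SD of each group. The neuron sum ran from 3.66 to 5.71, the astrocyte sum from 3.99 to 5.87 and the microglia sum from 6.41 to 7.16.

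The members differed widely in how steadily they were detected. In total 26 of 61 (42.6%) were never low in any library, against 4513 of 9931 genes (45.4%), and the median SD over the 25 libraries was 1.20 for members and 1.17 for all genes. Of the integrins, 7 of 10 alpha chains and 3 of 4 beta chains were never low. The same held for 4 of 13 collagens, 1 of 5 laminins, 0 of 6 ADAMTS genes and both SPARC family members. These counts use a fixed limit and the capture of each gene was not measured, so the classes are not ranked. Single libraries were low for between 2 and 18 members.

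**Figure D2:**
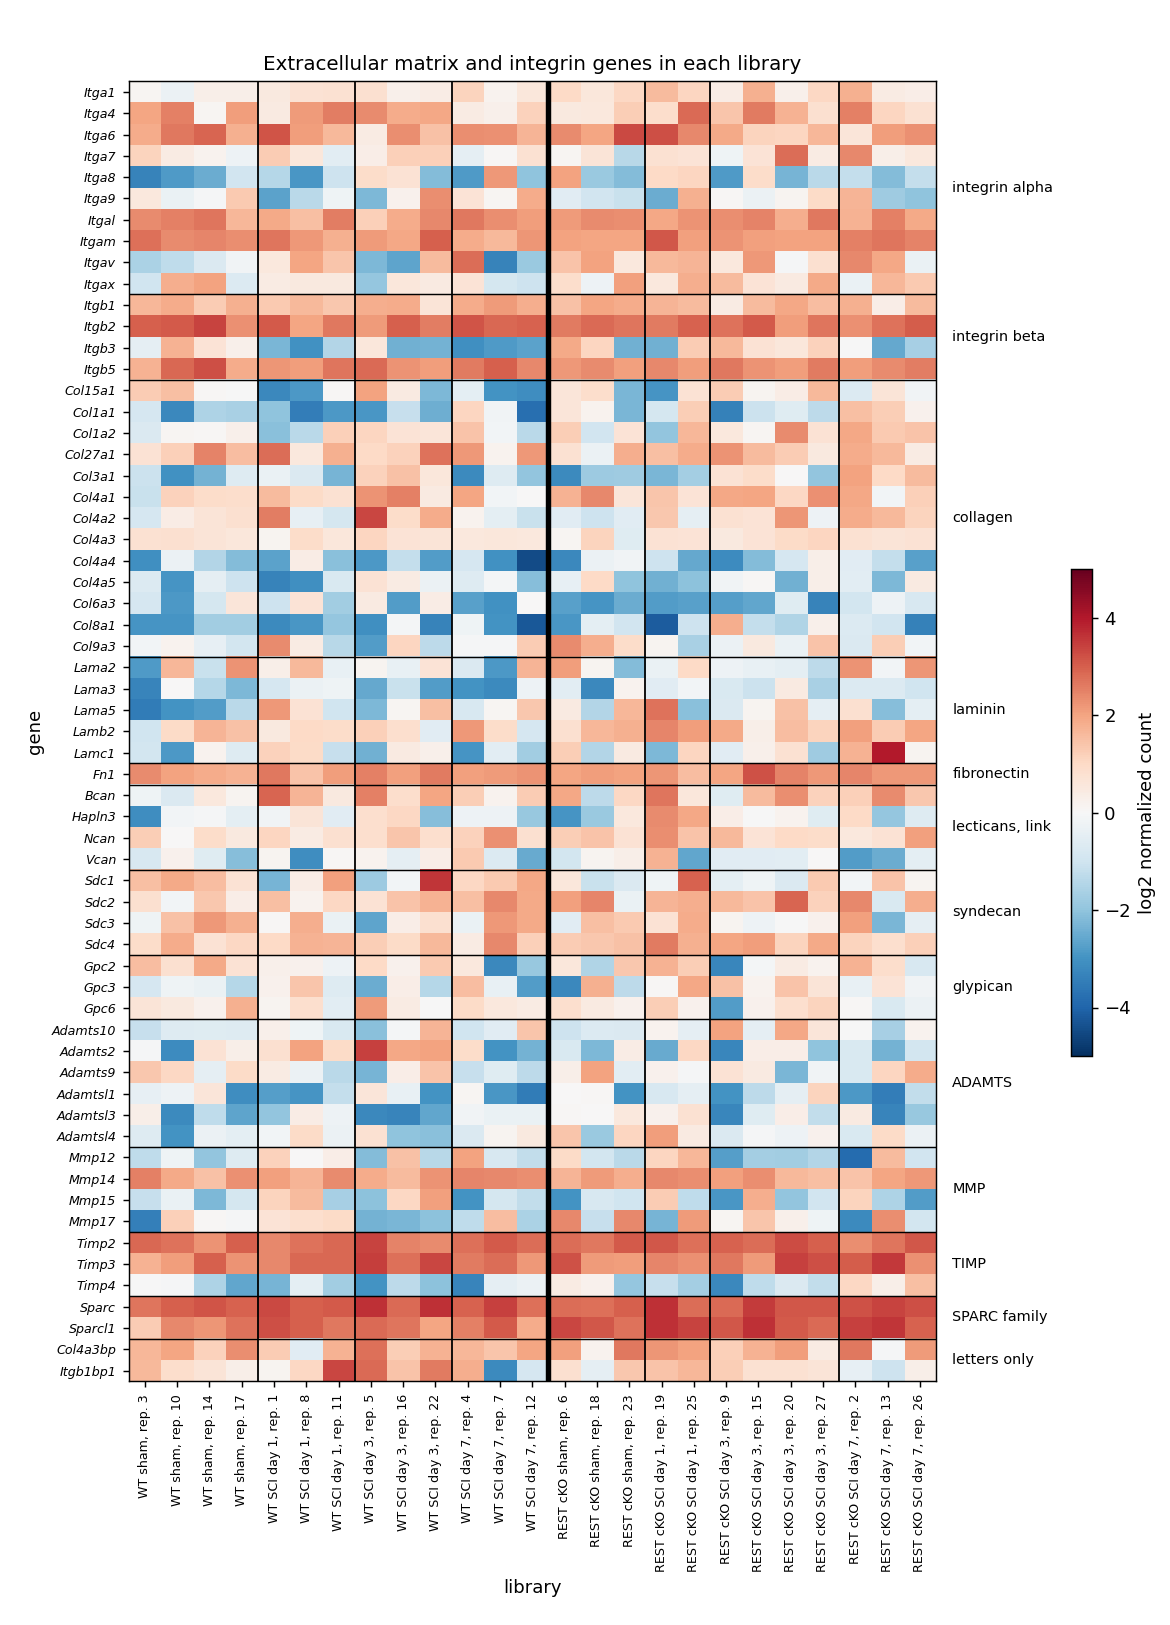
Log2 normalized count (color) of the 61 members (y axis, by class) in each of the 25 libraries (x axis, by group). The integrin beta chain *Itgb2* (1.98 to 3.40) is red in every library, whereas *Itgb3* (−3.07 to 1.88) and collagens such as *Col6a3* (−3.34 to 0.67) are red in some libraries and blue in others of the same WT group.

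In limma, 0 of 61 members passed an adjusted p under 0.1 in each of the 15 comparisons, and their values are described here against the same counts over all genes. Shares of all genes count both directions. In WT at day 1 after SCI, 0 of 61 members passed in limma, against 0% of all genes. At an unadjusted p under 0.05 the count was 6 (4 higher and 2 lower), against 6.43% of all genes, and 7 had libraries without overlap, against 7.02%. At day 3, 0 members passed in limma (0.0101% of all genes), and 8 had an unadjusted p under 0.05, all higher (6.90%). The 6 members without overlap at day 3 were higher too (6.54%). At day 7, 0 members passed in limma (0%), with 5 at an unadjusted p under 0.05 (6.89%) and 7 without overlap (6.87%). Of these 5, 2 were higher and 3 lower. Of the members without overlap, 2 were higher and 5 lower at day 7, and 5 were higher and 2 lower at day 1. The members' own share at an unadjusted p under 0.05 was thus 9.84%, 13.1% and 8.20% on the 3 days, above that of all genes on each day, and it was not tested against it.

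The day 3 counts rested partly on the library that stood apart. Without WT SCI day 3 replicate 5, limma gave 0 members past the threshold, 4 at an unadjusted p under 0.05 (5.20% of all genes) and 13 without overlap (15.5%). The median log2 difference of the members was 0.22 with it and 0.20 without it.

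In REST cKO at day 1, limma gave 0 members past the threshold (0% of all genes) and 2 at an unadjusted p under 0.05 (5.29%). With only 2 libraries in that group, 14 members were without overlap, against 20.4% of all genes. At day 3 the counts in limma were 0 past the threshold (0.0201%), 2 at an unadjusted p under 0.05 (4.65%) and 5 without overlap (6.69%). At day 7 they were 0 (0%), 3, all higher (5.67%), and 9 (10.7%). Of the members without overlap, 12 were higher and 2 lower at day 1, 3 and 2 at day 3, and 7 and 2 at day 7. At an unadjusted p under 0.05, 1 was higher and 1 lower at day 1, and again at day 3. The members' own share at an unadjusted p under 0.05 was 3.28%, 3.28% and 4.92% on the 3 days, below that of all genes on each.

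Between genotypes in sham, limma gave 0 members past the threshold (0.0302% of all genes), 4 at an unadjusted p under 0.05 (6.91%) and 7 without overlap (7.86%). At day 1 the counts in limma were 0 (0%), 5 (3.81%) and 14 (18.6%), again with 2 REST cKO libraries and with batch 2 alone holding both genotypes. At day 3 they were 0 (0%), 3 (6.37%) and 4 (7.59%). At day 7 they were 0 (0%), 6, all higher in REST cKO (9.95%), and 10 (12.4%). Without WT SCI day 3 replicate 5, the day 3 counts in limma were 0 past the threshold, 3 at an unadjusted p under 0.05 (5.45%) and 9 without overlap (17.9%).

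Averaged over sham and the 3 days, REST cKO against WT gave 0 members past the threshold in limma (0.0101%) and 6 at an unadjusted p under 0.05 (8.53%). Of these 6, 5 were higher and 1, a collagen, was lower. SCI against sham, averaged over the 3 days and both genotypes, gave 0 (0.0201%) and 7 (5.97%). Of these 7, 6 were higher and 1, an integrin beta chain, was lower. The test of any difference between the 8 groups gave 0 (0.0101%) and 5 (8.50%). The interaction of genotype and injury, which tests whether the SCI difference itself differed between genotypes, gave 0 (0%) and 1 (5.15%) at day 3 and 0 (0.0201%) and 6 (6.35%) at day 7. With WT SCI day 3 replicate 5 left out, the counts at an unadjusted p under 0.05 were 7 (8.99%) for the genotypes averaged, 6 (6.33%) for SCI against sham averaged, 5 (8.34%) for any difference and 2 (5.18%) for the interaction at day 3, and limma called 1 member, *Sparcl1*, for the genotypes averaged (0.0302% of all genes) and 0 for the others. The median standard error of a member's log2 difference ran from 0.99 (WT at day 7 against sham) to 1.32 (REST cKO against WT at day 1) over the 10 pairwise comparisons.

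Median log2 differences of the members depended on the scaling of the libraries in some comparisons and kept their sign in others. In REST cKO against WT at day 7 the median was 0.24 for members and 0.23 for all genes, and 36 of 61 members were positive. After quantile normalization these became −0.19, −0.03 and 26, and after centring each library on its median −0.07, −0.08 and 28. In REST cKO at day 1 against sham the medians were 0.35 and 0.29 as deposited, and 0.00 and −0.06 after centring. WT at day 1 against sham gave 0.15 and 0.12 as deposited and −0.07 and −0.10 after centring. WT at day 7 against sham gave 0.04 and −0.12 as deposited and 0.16 and 0.00 after centring. REST cKO against WT at day 1 gave 0.34 and 0.19 as deposited and 0.15 and 0.00 after centring. WT at day 3 against sham gave 0.22 for members and 0.01 for all genes, and the members stayed positive at 0.10 after quantile normalization and 0.16 after centring. REST cKO against WT in sham gave 0.19 and 0.04, and the members' median was 0.18 and 0.13 under these scalings. Its lowest value over the 11 alternatives was 0.04. With 1 library left out, the members' median ran from 0.08 to 0.24 in this comparison and from 0.10 to 0.26 in WT at day 3 against sham. The other 3 medians of the members lay between −0.02 and 0.07 as deposited. Whether the members' median differed from that of all genes was not tested, and no direction is given for the members as a whole. The 31 pairwise differences without overlap that are named below kept their sign under both scalings.

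The log2 differences below are fitted values from limma, which holds the sequencing components in the model, so they need not equal the difference of the group means. The integrins of the myeloid lineage had levels in every library. *Itgb2* (CD18) ranged from 1.98 to 3.40, its partner *Itgal* (CD11a) from 1.20 to 2.68, and *Itgax* (CD11c) from −1.93 to 2.06. *Itgam* (CD11b), whose chain pairs with CD18 on microglia and macrophages, was at 2.74, 2.37, 2.42 and 2.33 in WT sham, 2.66, 2.15 and 1.77 at day 1, 2.12, 1.94 and 2.97 at day 3, and 1.85, 1.61 and 2.20 at day 7. All 3 WT day 7 libraries were below all 4 WT sham libraries. In REST cKO, *Itgam* was at 2.02, 1.96 and 1.97 in sham, 3.09 and 2.05 at day 1, 2.23, 2.05, 2.00 and 2.03 at day 3, and 2.50, 2.67 and 2.47 at day 7. The day 7 libraries were all above the sham libraries there, so the order of the genotypes was opposite in sham and at day 7, without overlap at either.

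The log2 difference of *Itgam* between REST cKO and WT was −0.55 (SE 0.36, adjusted p = 0.825 in limma) in sham and 0.70 (SE 0.34, adjusted p = 0.498) at day 7, the latter falling to 0.39 with the libraries centred on their medians. The difference between its SCI responses at day 7 was 1.25 (SE 0.51, unadjusted p = 0.0204, adjusted p = 0.692 in limma) and did not pass. Within batch 1, mean *Itgam* was 2.50 (n = 1) in REST cKO and 1.73 (n = 2) in WT at day 7, and within batch 2 it was 2.67 and 2.20 (n = 1 each), an order that the lack of overlap fixes. Batch 3 held no WT library at day 7. The summed microglia markers were 6.92 ± 0.09 (SD, n = 4) in WT sham and 6.95 ± 0.09 (n = 3) in WT at day 7, against 6.62 ± 0.16 (n = 3) in REST cKO sham and 6.84 ± 0.05 (n = 3) in REST cKO at day 7. The microglia sums overlapped between the genotypes at day 7 and not in sham. In sham the astrocyte, neuron and inhibitory neuron sums did not overlap either, as given beside *Sparcl1*. At day 7 the sums of neurons, excitatory neurons and inhibitory neurons did not, as given beside the collagens. From WT sham to WT day 7, those of endothelial cells, oligodendrocytes and their precursors did not overlap. The part of these cells in the *Itgam* values was not tested.

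*Itgb3*, the beta 3 chain that pairs with alpha v, was at −0.47, 1.74, 0.67 and 0.25 in WT sham. In WT after SCI it was at −2.30, −3.02 and −1.46 at day 1, 0.59, −2.42 and −2.37 at day 3, and −3.07, −2.83 and −2.69 at day 7. Days 1 and 7 lay wholly below sham, and at day 3 the single high library was replicate 5. Against WT sham, the log2 difference of day 1 was −3.15 (SE 1.18, adjusted p = 0.648 in limma), that of day 3 was −2.01 (SE 1.26, adjusted p = 0.796), or −2.80 (SE 1.30, adjusted p = 0.922) without replicate 5, and that of day 7 was −3.40 (SE 1.14, adjusted p = 0.468). In batch 1, mean *Itgb3* was 0.64 (n = 2) in WT sham and −2.95 (n = 2) in WT at day 7, and in batch 2 it was 0.46 (n = 2) and −2.69 (n = 1). The lack of overlap fixes this order.

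*Itgb3* in REST cKO was at 1.88, 1.07 and −2.40 in sham, −2.39 and 1.27 at day 1, 1.63, 0.71, 0.58 and 1.14 at day 3, and −0.04, −2.58 and −1.64 at day 7. Low and high libraries occurred in the same group in sham and at day 1, and day 3 was high throughout. The interaction of genotype and injury for *Itgb3* was 1.67 (SE 1.81, adjusted p = 0.935 in limma) at day 7, so a difference between genotypes in this response was not shown. It ranged from 0.50 without REST cKO sham replicate 23 to 4.16 without replicate 6 of that group, was 1.05 without WT sham replicate 10, was 2.67 when replicate 13 of REST cKO SCI day 7 was left out, and was 0.40 after quantile normalization. Beside it, the summed endothelial markers in WT were 5.14 ± 0.20 (SD, n = 4) in sham, 5.53 ± 0.32 (n = 3) at day 1 and 5.50 ± 0.13 (n = 3) at day 7. The endothelial sums overlapped sham at day 1 and not at day 7. Those of oligodendrocyte precursors (2.04 ± 0.32 in sham, 3.01 ± 0.59 at day 1 and 3.25 ± 0.37 at day 7) were above sham on both days without overlap. Astrocyte sums did not overlap sham at day 1 (4.34 ± 0.24 and 5.29 ± 0.58), nor did oligodendrocyte sums at day 7 (3.25 ± 0.38 and 4.05 ± 0.32). The part of RNA from these cells in the *Itgb3* values was not tested.

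Among other alpha chains, *Itgav* (alpha v) was at −1.59, −1.28, −0.71 and −0.17 in WT sham and at 0.52, 1.99 and 1.38 in WT at day 1, without overlap. Its log2 difference was 2.67 (SE 1.20, adjusted p = 0.726 in limma). *Itgav* was mixed later in WT, with −2.23, −2.63 and 1.59 at day 3 and 2.79, −3.32 and −1.84 at day 7. *Itga8*, a receptor chain for RGD-containing matrix proteins, was at 1.00 and 1.08 in REST cKO at day 1 and at −1.43, −2.90 and −1.02 in WT at day 1. The fitted log2 difference of *Itga8* was 4.71 (SE 1.54, adjusted p = 0.999 in limma), larger than the gap between the means of 1.04 and −1.78. It was 2.82 without the components, and only batch 2 held both genotypes at day 1, with 1 library of each.

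The other groups of *Itga8* were at −3.36, −2.82, −2.49 and −0.97 in WT sham, 0.91, 0.72 and −2.18 in WT at day 3, and −2.82, 2.18 and −2.03 in WT at day 7. In REST cKO it was at 2.01, −1.85 and −2.16 in sham, −2.82, 0.93, −2.34 and −1.37 at day 3, and −1.18, −2.18 and −1.20 at day 7. Libraries above 0 and below −1 occurred together in WT at days 3 and 7 and in REST cKO sham and at day 3. The interaction of genotype and injury was −6.04 (SE 1.99, unadjusted p = 0.00547, adjusted p = 0.912 in limma) at day 3, or −5.51 (SE 1.98, adjusted p = 0.905) without WT replicate 5, and −4.50 (SE 1.84, adjusted p = 0.694) at day 7. Without the components it was −2.96 at day 3 and −2.37 at day 7, and with them it was −2.80 at day 7 without WT SCI day 7 replicate 7, so its size rests on the model. *Itga6*, a laminin receptor chain, was at 2.36, 1.96 and 3.30 in REST cKO sham and at 1.88, 1.13, 1.06 and 1.66 in REST cKO at day 3, a log2 difference of −1.20 (SE 0.56, adjusted p = 0.999 in limma). The day 3 libraries were below all sham libraries by a small margin. Between these groups the sums of neuron markers (5.46 ± 0.28 in sham and 4.83 ± 0.05 at day 3) and inhibitory neuron markers (3.33 ± 0.20 and 2.00 ± 0.29) were lower at day 3 and that of microglia markers (6.62 ± 0.16 and 6.96 ± 0.11) was higher, each without overlap, and their part in *Itga6* was not tested. The median levels of the inhibitory and microglia lists overlapped between these groups, and those of the neuron list did not. The remaining integrin chains ranged over the 25 libraries from −0.28 to 1.76 (*Itga1*), 0.11 to 2.84 (*Itga4*), −1.40 to 2.78 (*Itga7*) and −2.68 to 2.34 (*Itga9*). For the beta chains *Itgb1*, which pairs with most matrix-binding alpha chains, and *Itgb5*, the ranges were 0.35 to 2.11 and 1.74 to 3.21.

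Collagens held the smallest adjusted p between any 2 groups, at day 7. *Col3a1*, a fibrillar collagen of connective tissue and vessel walls, was at −1.06, −3.04, −2.35 and −0.63 in WT sham, −0.32, −0.71 and −2.31 at day 1, 1.16, 1.46 and 0.57 at day 3, and −3.20, −0.66 and −1.99 at day 7. The day 3 libraries were all above sham, and the day 7 libraries lay in the range of sham apart from replicate 4, which was lower. In REST cKO, *Col3a1* was at −3.19, −1.81 and −1.77 in sham, −2.30 and −1.68 at day 1, 0.73, 0.91, 0.03 and −1.96 at day 3, and 2.02, 0.99 and 1.60 at day 7. There, day 7 was the high group and did not overlap sham, and 3 of 4 libraries at day 3 were above sham.

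*Col3a1* differed from sham by 2.76 (SE 1.09, adjusted p = 0.629 in limma) in WT at day 3, or 2.70 (SE 1.19, adjusted p = 0.922) without replicate 5. In REST cKO it differed from sham by 2.26 (SE 1.08, adjusted p = 0.999) at day 3 and 3.95 (SE 1.12, adjusted p = 0.588) at day 7. REST cKO against WT at day 7 gave 3.62 (SE 1.05, adjusted p = 0.232 in limma), the smallest adjusted p of any member between 2 groups. Mean *Col3a1* at day 7 was 2.02 (n = 1) in REST cKO and −1.93 (n = 2) in WT within batch 1, and 0.99 and −1.99 (n = 1 each) within batch 2. The lack of overlap fixes the order within each batch. The interaction at day 7 was 4.18 (SE 1.57, unadjusted p = 0.0134, adjusted p = 0.651 in limma). None of these passed.

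Of the collagen IV chains, which form the network of basement membranes, *Col4a2* followed a similar order at day 7. It was at −0.84, 0.38, 0.63 and 0.81 in WT sham, 2.56, −0.41 and −0.88 at day 1, 3.36, 0.93 and 1.85 at day 3, and 0.18, −0.48 and −1.11 at day 7. REST cKO libraries were at −0.57, −1.02 and −0.56 in sham, 1.35 and −0.43 at day 1, 0.75, 0.67, 2.19 and −0.27 at day 3, and 1.85, 1.64 and 1.10 at day 7. In each genotype the day 3 libraries were above all sham libraries, and day 7 remained above sham in REST cKO and overlapped sham in WT. The log2 difference between genotypes at day 7 was 2.07 (SE 0.93, adjusted p = 0.464 in limma), and the interaction was 3.07 (SE 1.40, adjusted p = 0.782). Mean *Col4a2* at day 7 was 1.85 (n = 1) in REST cKO and −0.15 (n = 2) in WT within batch 1, and 1.64 and −1.11 (n = 1 each) within batch 2, an order that the lack of overlap fixes.

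*Col4a1*, the partner chain of *Col4a2*, did not separate the genotypes at day 7, with 1.94, −0.14 and 1.19 in REST cKO and 1.96, −0.13 and 0.03 in WT. *Col4a5* was at 0.71, 0.39 and −0.29 in WT at day 3 and at −0.68, −2.96, −0.47 and −1.03 in WT sham, a log2 difference of 2.43 (SE 1.11, adjusted p = 0.689 in limma), or 2.17 without replicate 5 and 1.56 without the components. The chains *Col4a3* and *Col4a4* ranged from −0.61 to 1.12 and from −4.46 to 0.36 over the 25 libraries.

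Marker sums at day 7, beside the collagen values, were 5.50 ± 0.13 (SD, n = 3) in WT and 5.67 ± 0.20 (n = 3) in REST cKO for endothelial cells. Mural cell markers summed to 4.40 ± 0.83 and 4.82 ± 1.18, and the fibroblast and meningeal list to 2.18 ± 0.60 and 2.20 ± 0.88. Each of these pairs overlapped between the genotypes, whereas the neuron sums, 4.57 ± 0.45 in WT and 5.29 ± 0.38 in REST cKO, did not, nor did those of excitatory (3.39 ± 0.24 and 3.90 ± 0.28) and inhibitory neurons (1.47 ± 0.20 and 2.63 ± 0.32). The median levels of these 3 neuronal lists did overlap, both as deposited and less the median of each library. For inhibitory neurons the list median was −0.90 to −0.48 in WT and −2.69 to 0.25 in REST cKO. In REST cKO replicate 2, 3 of the 4 measured inhibitory genes were low. From sham to day 7 in REST cKO, the microglia sum was higher (6.62 ± 0.16 and 6.84 ± 0.05) and the inhibitory neuron sum lower (3.33 ± 0.20 and 2.63 ± 0.32), both without overlap. The median levels of both lists overlapped between these groups. In WT at day 3 the endothelial sum was 5.73 ± 0.55 (n = 3), against 5.14 ± 0.20 (n = 4) in sham. The part of vessel, fibroblast, neuronal or microglial RNA in the collagen values was not tested.

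*Col6a3*, a collagen VI chain, was at −2.72, −2.95 and −2.50 in REST cKO sham and at −0.91, −0.25 and −0.79 in REST cKO at day 7, with a log2 difference of 2.83 (SE 1.16, adjusted p = 0.840 in limma). Its interaction at day 7 was 4.17 (SE 1.63, adjusted p = 0.663). *Col6a3* was low in both REST cKO libraries at day 1 (−2.81 and −2.73) and higher in WT at day 1 (−1.02, 0.67 and −1.73), a difference of −3.16 (SE 1.37, adjusted p = 0.999), or −2.08 without the components. *Col1a1*, a chain of fibrillar collagen I, was at −0.86 and 1.24 in REST cKO and at −2.01, −3.45 and −2.89 in WT at day 1, a difference of 4.07 (SE 1.46, adjusted p = 0.999 in limma). The gap between these group means was 2.97, and the fitted difference was 2.55 without REST cKO SCI day 1 replicate 25 and 6.05 without replicate 19, so its size rests on single libraries. Averaged over sham and the 3 days, *Col1a1* was 2.00 higher in REST cKO (SE 0.59, adjusted p = 0.441) and did not pass. The partner chain *Col1a2* ranged from −2.09 to 2.38.

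Among the other collagens, *Col15a1*, of vascular basement membranes, was at 1.26, 1.52, 0.07 and −0.02 in WT sham and at −0.48, −2.97 and −3.10 in WT at day 7, a difference of −2.87 (SE 1.21, adjusted p = 0.624 in limma). *Col9a3* was at 2.37, 1.80 and 0.92 in REST cKO sham and at 0.14 and −1.64 in REST cKO at day 1, a difference of −2.46 (SE 1.18, adjusted p = 0.924), or −1.48 without REST cKO SCI day 1 replicate 25. Both were lower after injury without overlap in these comparisons. Beside *Col9a3*, the sums of astrocyte (5.27 ± 0.13 in sham and 5.53 ± 0.12 at day 1), oligodendrocyte (3.47 ± 0.35 and 4.46 ± 0.88) and precursor markers (2.20 ± 0.60 and 3.54 ± 0.33) were higher at day 1, each without overlap. Beside *Col15a1*, those of endothelial cells (5.14 ± 0.20 in sham and 5.50 ± 0.13 at day 7), oligodendrocytes (3.25 ± 0.38 and 4.05 ± 0.32) and their precursors (2.04 ± 0.32 and 3.25 ± 0.37) were higher at day 7, again without overlap. Their part was not tested. *Col27a1* ranged from −0.30 to 2.78 and *Col8a1* from −4.24 to 1.81.

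**Figure D3:**
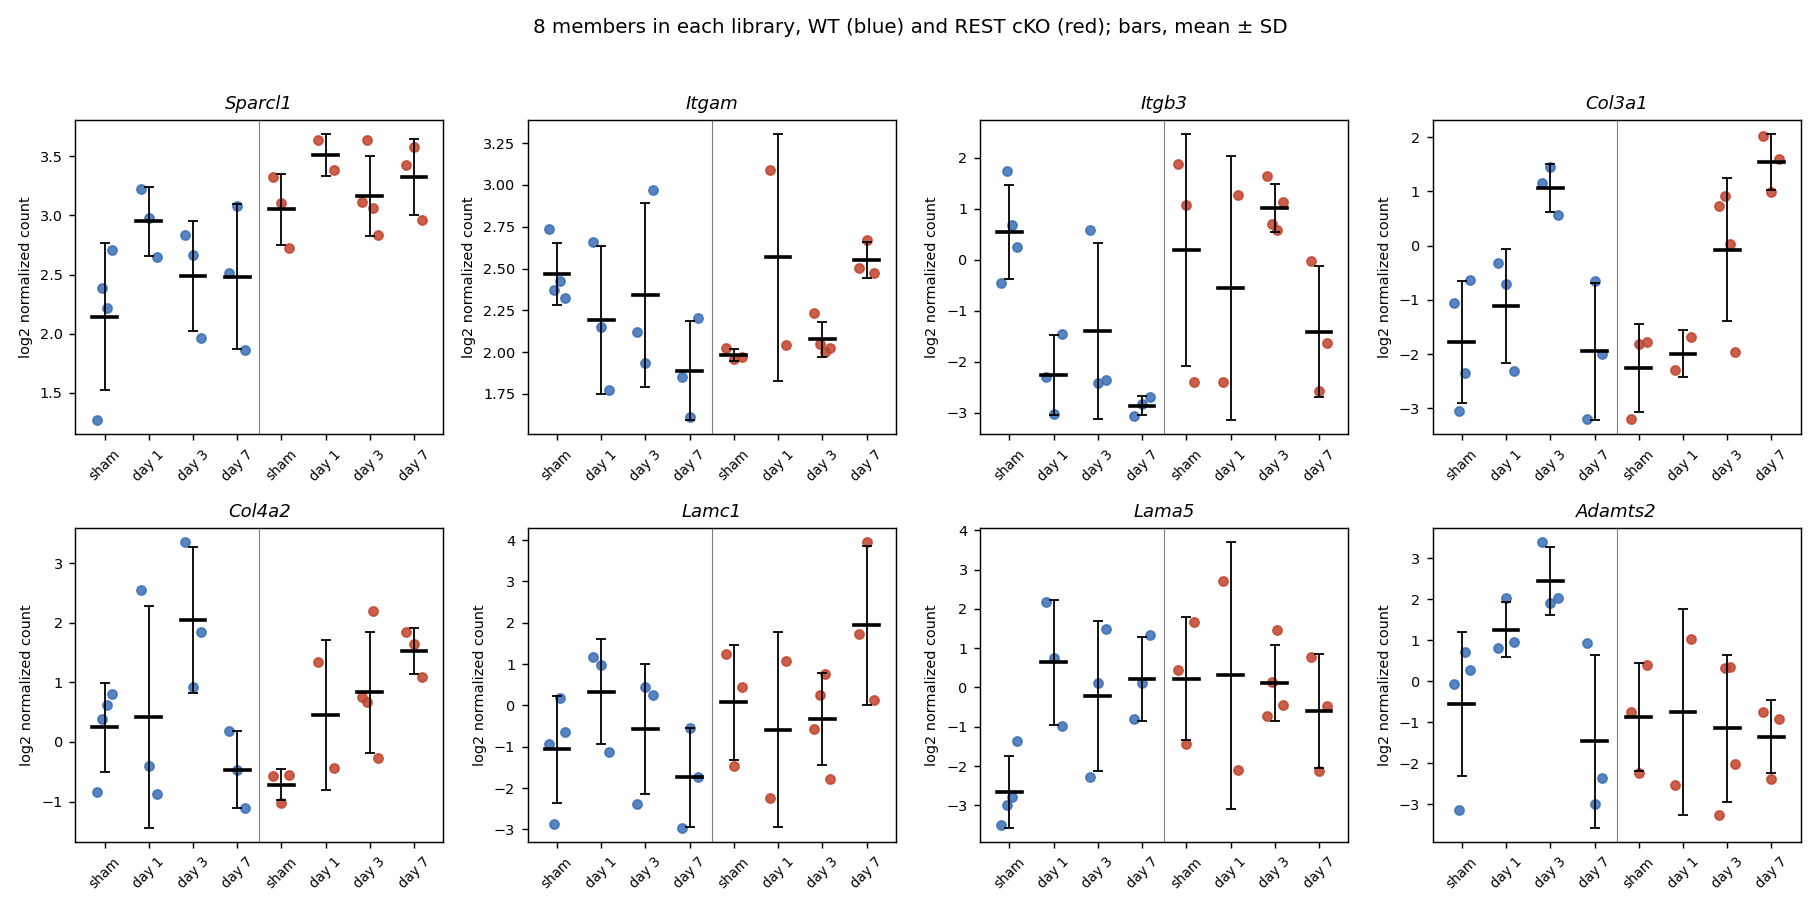
Log2 normalized count (y axis) of 8 members in each library, by group (x axis), with WT in blue, REST cKO in red and bars for the mean ± SD of each group. *Col3a1* at day 7 sits between 0.99 and 2.02 in REST cKO and between −3.20 and −0.66 in WT, and *Sparcl1* in sham between 2.73 and 3.33 in REST cKO and between 1.27 and 2.70 in WT.

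Laminins are the trimeric glycoproteins of basement membranes. Of the 5 chains measured, 4 were low in at least 1 library, and none in more than 7 of the 25. *Lama5*, the alpha 5 chain, was at −3.49, −2.99, −2.78 and −1.35 in WT sham, 2.19, 0.74 and −0.99 at day 1, −2.27, 0.11 and 1.50 at day 3, and −0.80, 0.11 and 1.34 at day 7. Sham was the low group in WT and did not overlap days 1 or 7. In REST cKO, *Lama5* was at 0.45, −1.45 and 1.66 in sham, 2.71 and −2.09 at day 1, −0.71, 0.13, 1.45 and −0.44 at day 3, and 0.79, −2.12 and −0.47 at day 7. All REST cKO groups overlapped each other. The log2 difference from WT sham was 3.38 (SE 1.25, adjusted p = 0.639 in limma) at day 1 and 3.20 (SE 1.22, adjusted p = 0.540) at day 7, and the interaction at day 7 was −4.47 (SE 1.93, adjusted p = 0.733). Beside *Lama5*, and beside *Itgav* at day 1, the oligodendrocyte precursor markers summed to 2.04 ± 0.32 (SD, n = 4) in WT sham, 3.01 ± 0.59 (n = 3) at day 1 and 3.25 ± 0.37 (n = 3) at day 7, with sham below both days. Astrocyte markers in WT at day 1, at 5.29 ± 0.58 (n = 3), were above sham too, at 4.34 ± 0.24 (n = 4). Their part in these values was not tested.

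*Lamc1*, the gamma 1 chain shared by most laminins, was at −0.93, −2.87, 0.18 and −0.65 in WT sham, 1.16, 0.97 and −1.14 at day 1, −2.39, 0.43 and 0.25 at day 3, and −2.96, −0.54 and −1.73 at day 7. REST cKO levels were 1.23, −1.46 and 0.44 in sham, −2.25 and 1.08 at day 1, −0.58, 0.26, 0.76 and −1.78 at day 3, and 1.74, 3.96 and 0.13 at day 7. As deposited, the genotypes did not overlap at day 7, with a log2 difference of 4.01 (SE 1.24, adjusted p = 0.238 in limma), or 2.22 with a term for sex.

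The deposited *Lamc1* values differ from those of the other members in form. *Lamc1* was the only member among the 140 genes that still correlated with the sequencing components (r = 0.0157 and 0.00453, where the other genes reach at most 3.94e-10). Its 6 day 7 values have at most 9 decimals, against at least 12 in every value of the other members. When the sign of each of the 25 values was turned in turn, turning WT SCI day 7 replicate 7 from −0.54 to 0.54 was the 1 change that brought both correlations under 1e-05. With that sign turned, an alternative chosen after the values were seen, the day 7 difference was 3.62 (SE 1.28, adjusted p = 0.317 in limma) and the genotypes overlapped. How the deposited value arose was not tested, and the separation of *Lamc1* at day 7 rests on it.

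The other laminin chains ranged from −2.89 to 2.23 (*Lama2*), −3.31 to 0.44 (*Lama3*) and −0.99 to 2.46 (*Lamb2*). Averaged over sham and the 3 days, *Lamb2* was 1.05 higher in REST cKO (SE 0.39, adjusted p = 0.517 in limma). Fibronectin (*Fn1*), which integrins bind through its RGD motif, was steady, with group means from 1.89 ± 0.46 (SD, n = 2) in REST cKO at day 1 to 2.45 ± 0.54 (n = 4) in REST cKO at day 3. WT sham lay between them at 1.99 ± 0.27 (n = 4).

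Lecticans are the chondroitin sulfate proteoglycans that bind hyaluronan, and link proteins hold that complex together. Brevican (*Bcan*) was at −0.23, −0.70, 0.52 and 0.13 in WT sham, 2.90, 1.68 and 0.48 at day 1, 2.53, 0.89 and 1.98 at day 3, and 1.24, 0.16 and 1.28 at day 7. All 3 day 3 libraries were above sham, whereas days 1 and 7 each held a library within it. The log2 difference at day 3 was 2.10 (SE 0.90, adjusted p = 0.655 in limma), or 1.72 (SE 0.96, adjusted p = 0.933) without replicate 5. Averaged over the 3 days and both genotypes, *Bcan* was 1.26 higher after SCI (SE 0.47, adjusted p = 0.711), or 0.80 without REST cKO sham replicate 18.

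Neurocan (*Ncan*) was at 2.33 and 1.41 in REST cKO and at 1.08, 0.40 and 0.81 in WT at day 1, a log2 difference of 1.59 (SE 0.75, adjusted p = 0.999 in limma). The link protein gene *Hapln3* was at −2.94, −1.84 and 0.54 in REST cKO sham and at 2.37 and 1.94 in REST cKO at day 1, a difference of 3.58 (SE 1.26, adjusted p = 0.886), or 2.13 without REST cKO sham replicate 6. Both day 1 libraries of REST cKO were above the other group in each of these comparisons, although the lower *Ncan* library lay within the range of REST cKO sham (0.72 to 1.42). Versican (*Vcan*) ranged from −3.12 to 1.75. Astrocyte markers, beside these proteoglycans, summed to 5.53 ± 0.12 (SD, n = 2) in REST cKO at day 1 and 5.29 ± 0.58 (n = 3) in WT at day 1. The sums were 4.84 ± 0.35 (n = 3) in WT at day 3 and 4.34 ± 0.24 (n = 4) in WT sham, and 5.27 ± 0.13 (n = 3) in REST cKO sham. Markers of oligodendrocyte precursors summed to 2.20 ± 0.60 (n = 3) in REST cKO sham and 3.54 ± 0.33 (n = 2) in REST cKO at day 1, without overlap, and to 3.01 ± 0.59 (n = 3) in WT at day 1. Oligodendrocyte markers did not overlap between REST cKO sham and day 1 either (3.47 ± 0.35 and 4.46 ± 0.88). The part of RNA from these cells was not tested.

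Syndecans and glypicans are heparan sulfate proteoglycans of the cell surface, the first anchored by a membrane-spanning segment and the second by a lipid. *Sdc2* was at 0.78, −0.13, 1.36 and 0.35 in WT sham and at 1.52, 2.40 and 1.88 in WT at day 7, a log2 difference of 1.57 (SE 0.72, adjusted p = 0.672 in limma). *Gpc2*, a glypican of developing neurons, was at 1.56, 0.82, 1.89 and 0.72 in WT sham and at 0.51, −3.23 and −1.90 in WT at day 7, a difference of −2.70 (SE 1.03, adjusted p = 0.540), or −1.63 without WT SCI day 7 replicate 7. These members were separated from sham in opposite directions. In the same comparison the sums did not overlap for oligodendrocyte precursors (2.04 ± 0.32 and 3.25 ± 0.37), oligodendrocytes (3.25 ± 0.38 and 4.05 ± 0.32) and endothelial cells (5.14 ± 0.20 and 5.50 ± 0.13), and their part was not tested. Over the 25 libraries, *Sdc4* ranged from 0.40 to 2.60, *Sdc1* from −2.32 to 3.58 and *Sdc3* from −2.62 to 2.18. *Gpc6* ranged from −2.81 to 2.12 and *Gpc3* from −3.24 to 1.92.

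Of the proteases, *Adamts2*, which removes the amino-terminal propeptide of fibrillar procollagens, was highest in WT at day 3. It was at −0.06, −3.15, 0.71 and 0.28 in WT sham, 0.81, 2.02 and 0.95 at day 1, 3.40, 1.92 and 2.03 at day 3, and 0.93, −2.99 and −2.36 at day 7. REST cKO levels were −0.75, −2.24 and 0.39 in sham, −2.52 and 1.02 at day 1, −3.26, 0.33, 0.34 and −2.01 at day 3, and −0.74, −2.38 and −0.93 at day 7. The WT day 3 libraries were above WT sham and above all 4 REST cKO libraries of day 3. The log2 difference was 3.26 (SE 1.37, adjusted p = 0.655 in limma) from WT sham, or 2.78 without replicate 5 and 2.08 without WT sham replicate 10, and −3.80 (SE 1.32, adjusted p = 0.650) for REST cKO against WT at day 3, or −3.30 without it.

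*Mmp17*, a membrane-anchored metalloproteinase, was at −2.37, −2.27 and −2.07 in WT at day 3 and at 0.10, 1.38, 0.25 and −0.23 in REST cKO at day 3. The log2 difference was 2.97 (SE 1.42, adjusted p = 0.780 in limma), or 2.88 without WT replicate 5. *Mmp14*, which activates other MMPs at the cell surface, ranged only from 1.43 to 2.50, while *Mmp12* ranged from −3.84 to 2.01 and *Mmp15* from −3.00 to 2.05. The ADAMTS genes *Adamts9* and *Adamts10* ranged from −2.34 to 2.03 and from −2.07 to 2.03. The ADAMTS-like genes, which lack the protease domain, ranged from −3.51 to 1.12 (*Adamtsl1*), −3.31 to 0.77 (*Adamtsl3*) and −3.00 to 2.10 (*Adamtsl4*), and *Adamtsl3* had an adjusted p of 0.630 in limma's test of any difference between the 8 groups.

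Among the inhibitors, *Timp4* was at 1.02, 0.28 and 1.49 in REST cKO and at −3.31, −0.44 and −0.30 in WT at day 7, without overlap and with a log2 difference of 2.37 (SE 1.11, adjusted p = 0.478 in limma), or 1.32 without WT SCI day 7 replicate 4. The neuron sums that did not overlap at day 7 are those given beside the collagens, and their part in *Timp4*, as in *Lamc1*, was not tested. *Timp2* and *Timp3* were never below 1.75 and ranged from 2.24 to 3.38 and from 1.75 to 3.53.

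*Sparcl1*, a secreted glycoprotein that astrocytes make and that is known to promote synapse formation, was the member nearest the threshold. It was at 1.27, 2.39, 2.22 and 2.70 in WT sham, 3.22, 2.98 and 2.65 at day 1, 2.83, 2.67 and 1.96 at day 3, and 2.51, 3.08 and 1.86 at day 7. In REST cKO it was at 3.33, 3.10 and 2.73 in sham, 3.63 and 3.38 at day 1, 3.11, 3.64, 3.07 and 2.84 at day 3, and 3.43, 3.58 and 2.96 at day 7. REST cKO libraries were higher without overlap in sham and at days 1 and 3, and at day 7 they overlapped WT through replicate 7.

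The log2 difference of *Sparcl1* between REST cKO and WT was 1.10 (SE 0.35, adjusted p = 0.496 in limma) in sham, 0.66 (SE 0.41, adjusted p = 0.999) at day 1, 0.54 (SE 0.33, adjusted p = 0.845) at day 3, or 0.74 (SE 0.35, adjusted p = 0.909) without WT replicate 5, and 0.89 (SE 0.33, adjusted p = 0.336) at day 7. Averaged over sham and the 3 days it was 0.80 (SE 0.17, 95% confidence interval 0.45 to 1.15, unadjusted p = 6.77e-05, adjusted p = 0.168 in limma). It passed with a term for batch (0.93, adjusted p = 0.0564 in limma), with a covariate for the low values per library (0.97, adjusted p = 0.0325), without WT SCI day 1 replicate 1 (0.86, adjusted p = 0.0687) and without WT SCI day 3 replicate 5 (0.87, adjusted p = 0.0940). Over 9 alternative settings the adjusted p ranged from 0.0325 to 0.581, and over 25 fits that each left out 1 library from 0.0687 to 0.496. The call therefore depends on the model and on single libraries.

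Within batches, mean *Sparcl1* in sham was 3.33 in REST cKO and 1.83 in WT in batch 1, and 3.10 and 2.46 in batch 2. At day 3 the means were 3.11 and 2.83 in batch 1, 3.35 and 2.67 in batch 2, and 2.84 and 1.96 in batch 3. At day 7 they were 3.43 and 2.79 in batch 1, and 3.58 and 1.86 in batch 2. At day 1 batch 2 alone held both genotypes, with 3.63 and 2.65. The REST cKO mean was the higher in each of these batches, which the lack of overlap fixes in sham and at days 1 and 3. Each of these means is of 1 or 2 libraries. Astrocyte markers, beside *Sparcl1*, summed to 4.34 ± 0.24 (SD, n = 4) in WT sham and 5.27 ± 0.13 (n = 3) in REST cKO sham, without overlap, and to 4.65 ± 0.39 (n = 3) and 5.18 ± 0.33 (n = 3) at day 7. At days 1 and 3, where *Sparcl1* did not overlap either, the astrocyte sums overlapped between the genotypes, with 5.29 ± 0.58 (n = 3) in WT and 5.53 ± 0.12 (n = 2) in REST cKO at day 1, and 4.84 ± 0.35 (n = 3) and 5.02 ± 0.40 (n = 4) at day 3. Neuron markers summed to 4.41 ± 0.52 (n = 4) in WT sham and 5.46 ± 0.28 (n = 3) in REST cKO sham, without overlap. In sham the inhibitory neuron sum (1.83 ± 1.03 in WT and 3.33 ± 0.20 in REST cKO) and the microglia sum (6.92 ± 0.09 and 6.62 ± 0.16) did not overlap either. The median level of the inhibitory list did overlap in sham, at −1.30 to 1.21 in WT and −0.36 to 1.20 in REST cKO. The neuron sums in WT and REST cKO were 5.14 ± 0.32 and 4.93 ± 0.33 at day 1, 4.86 ± 0.20 and 4.83 ± 0.05 at day 3, and 4.57 ± 0.45 and 5.29 ± 0.38 at day 7, where they did not overlap either. The part of astrocyte, neuronal or microglial RNA in the *Sparcl1* difference was not tested.

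*Sparc*, a collagen-binding matrix protein made by vessels and glia, ranged from 2.69 to 3.67. It was 0.31 higher after SCI averaged over the 3 days and both genotypes (SE 0.14, adjusted p = 0.801 in limma), and *Sparcl1* was 0.40 higher (SE 0.18, adjusted p = 0.801). These became 0.20 for *Sparc* with the libraries centred on their medians and 0.25 for *Sparcl1* without WT sham replicate 3. Of the members that match by letters only, *Col4a3bp*, a ceramide transfer protein, was at 2.19 and 2.01 in REST cKO and 1.27, −0.55 and 1.72 in WT at day 1, a log2 difference of 1.94 (SE 0.87, adjusted p = 0.999 in limma). This difference was 0.91 without WT SCI day 1 replicate 8 and 1.29 without the components. *Itgb1bp1*, a cytoplasmic protein that binds the integrin beta 1 tail, ranged from −3.19 to 3.32 and had an adjusted p of 0.605 in limma's test of any difference.

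Other genes of these pathways gave 0 calls in each of the 15 comparisons in limma. In REST cKO against WT at day 7, the count at an unadjusted p under 0.05 was 4 of 28 measured genes (31 listed) for integrin adhesion and signalling, all higher, with a median log2 difference of 0.18. It was 0 of 15 (24 listed) with a median of 0.30 for collagen processing and crosslinking, and 4 of 28 (41 listed), all higher, with a median of 0.30 for proteoglycan chain synthesis. Proteoglycan and matrix receptors of neurons gave 3 of 15 (20 listed), all higher, with a median of 0.13, and other matrix and hyaluronan genes 4 of 19 (44 listed), 3 higher and 1 lower, with a median of 0.42. All genes had a median of 0.23 in this comparison, and the 5 lists together gave 15 of 105 genes (14.3%), against 9.95% of all genes. The smallest adjusted p was 0.229, for *Ptprd*, a receptor phosphatase of neurons, and *Tns1*, a focal adhesion adaptor, had 0.232.

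In WT after SCI, the same 5 lists gave 2, 1, 1, 4 and 2 genes at an unadjusted p under 0.05 at day 1, in the order above, which is 9.52% of their 105 genes against 6.43% of all genes. At day 3 they gave 2, 1, 1, 0 and 4 (7.62% against 6.90%), or 1, 1, 0, 0 and 3 (4.76% against 5.20%) without replicate 5, and at day 7 they gave 3, 1, 1, 2 and 0 (6.67% against 6.89%). In REST cKO they gave 2, 0, 1, 1 and 0 at day 1 (3.81% against 5.29%), 1, 1, 0, 1 and 0 at day 3 (2.86% against 4.65%), and 2, 2, 3, 1 and 1 at day 7 (8.57% against 5.67%). Between genotypes the counts were 5, 0, 0, 1 and 4 in sham (9.52% against 6.91%), 0, 1, 1, 0 and 0 at day 1 (1.90% against 3.81%), and 2, 1, 2, 2 and 1 at day 3, 4 higher and 4 lower (7.62% against 6.37%). Without WT SCI day 3 replicate 5, the last were 1, 1, 2, 2 and 0 (5.71% against 5.45%). The shares of the lists lay on both sides of those of all genes and were not tested against them. With all libraries, limma called 0 of these genes. The smallest adjusted p among these was 0.267, for *Tns1* in WT at day 7.

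Promoter sequences were looked up because REST binds the RE1 element, whose letters include a left part, CAGCACC, and a right part, GGACAG. RefSeq promoters of 300 bases, from 250 before to 50 after the start, matched 43 of 61 members with 44 promoters in GRCm38.p6. Counting both strands, the left part was in 4 member promoters (9.09%) and 7.14% of all 32851 promoters. The right part was in 12 (27.3%) and 22.2%. Both parts, in the order and orientation of the element with 2 bases between them, were in 0 member promoters and in 12 of all promoters (0.0365%), and both parts anywhere in the window were in 1 member (2.27%), *Gpc2*, and in 1.73% of all promoters. A match is a description of letters, and the window says nothing of sites elsewhere.

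*Gpc2* (chr5:138279888-138280187, minus strand) is shown because it alone held both parts. Capitals mark the matches, 1 of the left part and 2 of the right part, here as their reverse complements.
Gpc2: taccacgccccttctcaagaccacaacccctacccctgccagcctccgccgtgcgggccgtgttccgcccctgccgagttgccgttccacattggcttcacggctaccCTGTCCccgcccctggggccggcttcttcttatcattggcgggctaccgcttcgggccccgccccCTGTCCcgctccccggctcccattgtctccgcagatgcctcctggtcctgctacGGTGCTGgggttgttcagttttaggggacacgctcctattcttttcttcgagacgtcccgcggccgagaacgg

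*Col4a1* (chr8:11312777-11313076, minus strand) and *Col4a2* (chr8:11312555-11312854, plus strand) are shown because they lie head to head and their promoter windows share 78 bases, while their levels at day 7 differed in order as given above. *Col3a1* (chr1:45311288-45311587, plus strand) is shown as the member with the smallest adjusted p between 2 groups. Neither part of the element was found in these 3 windows. GC content was 74.0% for *Col4a1*, 73.7% for *Col4a2*, 65.7% for *Gpc2* and 37.7% for *Col3a1*, against medians of 61.3% for member promoters and 52.7% for all promoters.
Col4a1: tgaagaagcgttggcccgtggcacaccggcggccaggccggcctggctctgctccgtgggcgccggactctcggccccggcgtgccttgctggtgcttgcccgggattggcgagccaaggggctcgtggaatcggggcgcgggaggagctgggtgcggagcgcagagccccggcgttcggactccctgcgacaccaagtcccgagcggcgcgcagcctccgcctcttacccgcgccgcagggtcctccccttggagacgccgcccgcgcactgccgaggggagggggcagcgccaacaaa
Col4a2: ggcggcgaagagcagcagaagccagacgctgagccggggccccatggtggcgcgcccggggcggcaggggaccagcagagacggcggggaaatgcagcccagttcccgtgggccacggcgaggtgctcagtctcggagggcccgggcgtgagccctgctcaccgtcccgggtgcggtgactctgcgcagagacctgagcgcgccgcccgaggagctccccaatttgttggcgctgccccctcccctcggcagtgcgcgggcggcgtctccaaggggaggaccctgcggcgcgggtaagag
Col3a1: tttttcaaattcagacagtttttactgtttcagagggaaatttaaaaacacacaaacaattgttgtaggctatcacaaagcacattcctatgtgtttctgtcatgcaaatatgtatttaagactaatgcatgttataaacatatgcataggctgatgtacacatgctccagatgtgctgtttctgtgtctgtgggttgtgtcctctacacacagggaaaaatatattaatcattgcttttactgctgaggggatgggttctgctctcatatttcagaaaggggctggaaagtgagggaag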

How the data were processed

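The authors deposited log2 normalized counts per gene. Per the labels and the study's methods, reads were aligned to mm10 with STAR, quantified with Salmon, summed per gene, scaled with DESeq2, and corrected for batch with RUV and for 2 components of the sequencing metrics by regression. Genes without counts in over 50% of samples were dropped by the authors. The table also holds the authors' fold changes, p-values and adjusted p-values, which were not used. The study's methods give an average of about 11000000 reads per library, and the read total of each library is not given in the sources used here. Of 9955 rows, 24 without a symbol were left out. The 25 libraries held 0 identical pairs. The study counts its replicates as mice, but the labels do not name the animal of each library, so p-values measure the spread between libraries.

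limma 3.58.1 in R 4.3.3 fitted 8 group means and the 2 components, with eBayes and a trend of variance on mean level. P-values were adjusted over all 9931 genes by Benjamini-Hochberg, and the threshold was an adjusted p under 0.1. The fit was tested on simulated data, and the outcome is not given here. Replicate numbers are library numbers that no groups share, so there was no pairing. Batches are those of the labels. Marker sums add unlogged normalized counts. The level of 1 marker gene is not reported here. Tables and plots used Python 3.11.15, pandas 2.3.3, numpy 2.4.6 and matplotlib 3.10.9.

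Named members had an unadjusted p under 0.05 without overlap in a pairwise comparison (at most 6 each), or were among the 10 of smallest p in the test of any difference, or were the 2 of highest mean in their class. Every other member was given by its range or counted. Members with a p under 0.05 only in an averaged comparison or interaction were named after their values were seen. Members and lists were chosen with earlier results of these data known. Alternatives were no components, terms for batch, sex or the share of low values, library weights, no trend, quantile or median scaling, a filter on means under 0, only the groups compared, a threshold of 0.05 and leaving out each library.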

Additional observations from a re-analysis of the deposited data

Results flagged for a closer look

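In the 2 groups of 4 libraries, each named member was tested for a single library far from the other 3 (Dixon's ratio of its gap to the group's range, critical value 0.829). Of 84 gene and group pairs, 4 exceeded it, where chance gives about 1 in 20. *Gpc2* in REST cKO SCI day 3 replicate 9 was at −3.27, with the others at −0.09 to 0.41 (ratio 0.864). In WT sham replicate 3, *Adamts10* was at −1.14 (others −0.66 to −0.61, ratio 0.895), *Col4a1* at −1.10 (others 0.87 to 1.17, ratio 0.866) and *Hapln3* at −3.11 (others −0.48 to −0.07, ratio 0.864). In limma, 0 members passed for the interaction of genotype and injury, with 1 at an unadjusted p under 0.05 at day 3 (5.15% of all genes) and 6 at day 7 (6.35% of all genes).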

How the results depend on the processing

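The count of members past the threshold stayed at 0 in 322 of 326 fits of the 15 comparisons in limma. The exception was REST cKO against WT averaged over sham and the 3 days, where 1 member (*Sparcl1*) passed with the batch term, and 1 with the term for the share of values under −2; leaving out 1 library gave 0 to 1. The cause was not tested. The 31 named pairwise log2 differences kept their sign in 487 of 487 fits and none passed (lowest adjusted p 0.148), although 17 fits moved by over 1.5 times, as given above. The other 13 named interactions and averages, run as alternatives added later, kept their sign in 340 of 340 fits with 0 called, and 11 fits moved by over 1.5 times. The median of the members in REST cKO at day 1 against sham moved from 0.35 to 0.04 (quantile) and 0.00 (centred), and in REST cKO against WT at day 7 from 0.24 to −0.19 and −0.07. In alternatives added after seeing the data, leaving out WT SCI day 3 replicate 5 moved the day 3 counts as given above. The filter on means kept 36 members and 6901 genes, so members under it have no value there. In 63 of 63 within-batch differences of the 31 named pairwise differences the sign was that of the pooled one, which the choice of members without overlap fixes. No paired analysis was possible because the groups share no replicate number. The read total of each library is not known here. Groups held 2 to 4 libraries, and standard errors were near 1 for most members in the pairwise comparisons. The part of read totals and group size in what could be detected was not tested.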
